A study of Mus musculus with 6 samples.

Results

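The 10 S100 genes described here are S100a1, S100a4, S100a6, S100a8, S100a9, S100a10, S100a11, S100a13, S100a14 and S100a16, taken by their symbols from the 24129 gene names of the deposited table of normalized counts. RNA was sequenced from 3 replicates of T1 cells (labelled 4T1A) and 3 replicates of T2 cells (labelled 4T1NA). Both populations descend from 4T1, a mouse mammary carcinoma line tagged with GFP and grown as a tumor in the mammary fat pad of BALB/c mice. They were re-sorted by GFP from a culture of sorted fibroblasts that tumor cells had overgrown. T1 cells had low GFP, grew adherent, proliferated fast and were aggressive in mice, whereas T2 cells had high GFP, were round and loosely attached, proliferated slowly and were less aggressive. Neither population carried a further treatment, and both were cultured in the same medium, but T2 cells were passaged like a suspension culture without trypsin, so population and handling cannot be told apart. No source states that the replicates came from separate tumors, and p-values measure only the spread between these samples.

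S100 proteins are small calcium sensors of the EF-hand type that work mostly as dimers. On binding calcium they expose a surface that grips target proteins such as annexins and non-muscle myosin, and some of them are also released and act on cell surface receptors. Several members are known in breast carcinoma for their links to motility and spread, and S100a8 and S100a9 are known as abundant products of neutrophils and other myeloid cells.

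The T1 libraries held between 18133227 and 20839686 reads on genes and the T2 libraries between 18719791 and 20307207. Counting error alone does not account for the spread among replicates: the chi-square per degree of freedom between them was 7.96 to 25.0. Keratins of simple epithelium were abundant in both populations, with a Krt18 normalized count of 23275 ± 2627 in T1 against 21658 ± 1762 in T2 libraries (SD, n = 3 each). Epcam, which defines epithelial carcinoma cells, had 3141 ± 314 in T1 but only 34.7 ± 3.49 in T2 libraries (SD, n = 3 each).

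All 10 genes lie on chromosome 3 of mm10, in 2 groups. S100a1, S100a13, S100a14, S100a16, S100a4, S100a6, S100a8 and S100a9 lie, in that order, within 184.7 kb, and S100a11 and S100a10 together span 44.2 kb, 2825 kb further along. S100a1 runs from 90511034 to 90514392 on the minus strand, and S100a13 from 90514435 to 90524581 on the plus strand, so these neighbours start back to back. S100a4 runs from 90603771 to 90606045 on the plus strand and overlaps an annotated gene of the same strand, Gm42674, whose name is not in the table. S100a6 runs from 90612882 to 90624181, S100a10 from 93555080 to 93564643, and S100a11 from 93520488 to 93526287, all on the plus strand.

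RefSeq promoters (GRCm38.p6, 250 bases before to 50 after the start) were matched for 8 of the 10 genes, in 9 entries. S100a10 and S100a14 were not matched. The sequences that follow are shown because S100a4 had the largest fold change of the 10, S100a8 had almost no reads, and S100a1 and S100a13 share the stretch between their RefSeq starts and were both lower in T1 cells. RefSeq starts S100a1 at 90514330, whereas the span above starts at 90514392, so part of that stretch lies inside the span. In GENCODE, S100a8 starts at 90668978, within the bases printed for it. Capitals mark TATAAA, the TATA box, and in S100a8 also a match to the C/EBP motif TTNCNNAA on the other strand.
S100a4, 250 bases before the start, plus strand, chr3:90603520-90603769: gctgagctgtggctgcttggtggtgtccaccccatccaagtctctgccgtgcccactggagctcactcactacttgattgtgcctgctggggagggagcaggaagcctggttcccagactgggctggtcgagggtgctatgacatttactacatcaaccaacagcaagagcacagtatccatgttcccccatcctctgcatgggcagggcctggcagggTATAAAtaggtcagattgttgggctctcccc
S100a8, 250 bases before the start, plus strand, chr3:90668821-90669070: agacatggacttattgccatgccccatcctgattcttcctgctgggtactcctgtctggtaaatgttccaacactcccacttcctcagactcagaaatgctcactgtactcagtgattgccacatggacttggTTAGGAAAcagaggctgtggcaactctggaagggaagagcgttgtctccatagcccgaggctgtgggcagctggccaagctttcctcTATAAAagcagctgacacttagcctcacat
S100a1 to S100a13, 104 bases between the RefSeq starts, plus strand, chr3:90514331-90514434: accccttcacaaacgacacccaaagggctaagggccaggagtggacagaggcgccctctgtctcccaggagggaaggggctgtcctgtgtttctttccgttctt

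TATAAA was found on either strand in the promoters of S100a4, S100a8 and S100a9, that is in 3 of the 9 entries, against 13.6% of the 32851 promoters of the same length. The match began at -31 and -30 from the start in S100a4 and S100a8, but at 0, on the start itself, in S100a9. The AP-1 motif TGANTCA was found in S100a11 and in the second S100a16 entry (7.81% of all promoters), and CAGGTG, the E-box bound by ZEB and SNAI factors, in S100a16 and S100a9 (20.2%). The C/EBP motif TTNCNNAA was found in S100a8 and S100a9 (40.7%), and CATTCC, the TEAD motif, in 0 of the 9 entries (14.7%). The stretch between S100a1 and S100a13 holds none of these letters.

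Of the 10 genes, 8 averaged 10 or more normalized counts across the 6 libraries and were compared by limma on log2(normalized count + 1). S100a4, S100a6, S100a10, S100a11, S100a1 and S100a13 were lower in T1 than in T2 cells, and S100a14 and S100a16 were higher in T1 cells. All 8 passed an adjusted p-value of 0.01, at which 24.4% of the 11514 genes compared were lower and 25.1% higher in T1 cells, or 49.5% in all. When the fold change also had to exceed 2 on the log2 scale, upward or downward, only S100a4 of the 8 passed. Those filters together called 4.2% of genes lower and 4.17% higher, or 8.37% in all. In each of the 8 genes the 3 T1 values lay apart from the 3 T2 values, as in 68.1% of all genes compared (33.9% with T1 below T2 and 34.2% with T1 above), and the exact permutation test gave p = 0.1, the smallest that 3 against 3 allow (two-sided). The median log2 fold change of the 8 was -1.26, against -0.0055 over all genes compared. In bulk RNA, fewer cells that express a gene and less RNA per cell cannot be told apart.

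**Figure D1:**
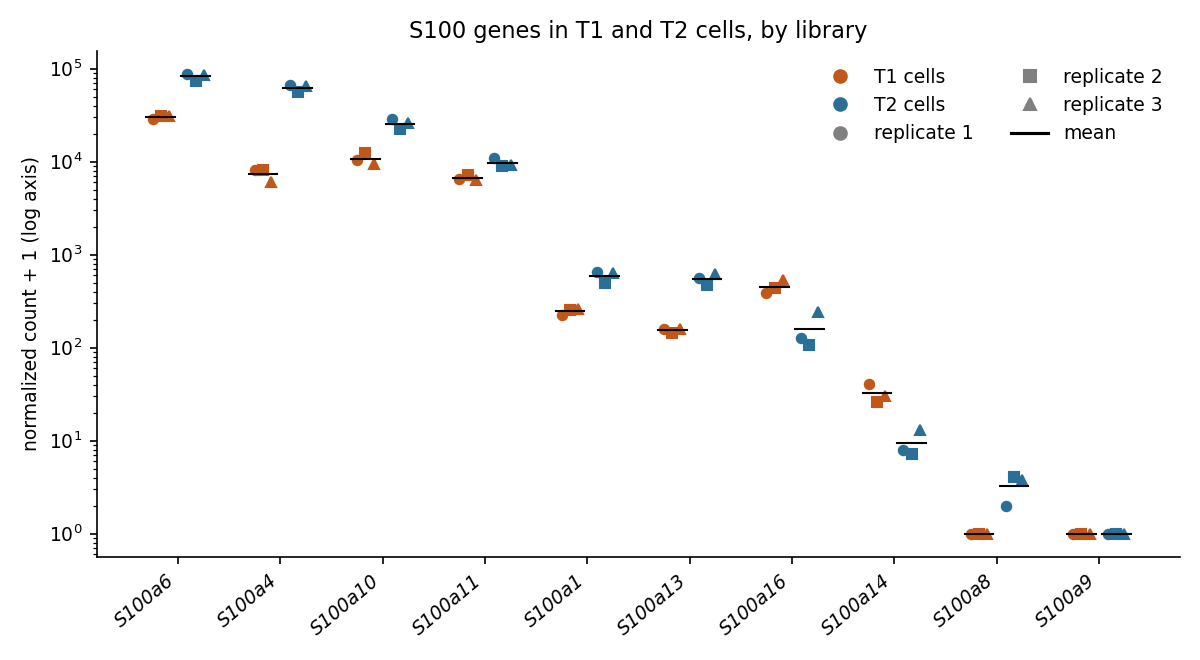
Normalized count plus 1 (log axis) of the 10 S100 genes in each library, T1 in orange and T2 in blue, with symbols for the replicates and a bar at the mean. Every T1 value lies below every T2 value in S100a6, S100a4, S100a10, S100a11, S100a1 and S100a13, and above in S100a16 and S100a14, while S100a8 stays at or under 3.07 normalized counts and S100a9 at 0.

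S100a4, also called metastasin or fibroblast-specific protein, binds the heavy chain of non-muscle myosin and is known for its part in cell motility. It had 8153, 8101 and 6103 normalized counts in the T1 libraries and 66565, 56116 and 64885 in the T2 libraries. The lowest T2 library was thus far above the highest T1 library, and the means of 7452 ± 1169 and 62522 ± 5611 (SD, n = 3 each) stood 8.39-fold apart. On the log2 scale T1 over T2 was -3.08, with a standard error of 0.12 (limma adjusted p = 1.72e-08).

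Because S100a4 is also used to mark fibroblasts, and the populations came out of a fibroblast culture, 11 fibroblast genes were read beside it. Col3a1, Lum, Pdgfrb and Thy1 had 0 reads in all 6 libraries, and Col1a1 and Col1a2 had no more than 1 read in any T2 library but between 4 and 30 in the T1 libraries. The list summed to between 997 and 1298 normalized counts in the T2 libraries and between 360 and 408 in the T1 libraries. Of the T2 sum, Pdgfra, which encodes CD140a, the marker of the fibroblast gate, made up 1099 ± 171, against 199 ± 7.98 in T1 libraries (SD, n = 3 each). The paper also measured Pdgfra by quantitative PCR, as a mesenchymal marker that differed between the T1 and T2 tumor cells. Postn, which had no T2 read, had 145 ± 18.1 in T1 libraries. The part of fibroblasts in the S100a4 difference was not tested.

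S100a6 (calcyclin), known for its rise in proliferating cells, had the highest normalized counts of the 10 genes in both populations. The T1 libraries held 29083, 31173 and 30922 and the T2 libraries 88312, 74558 and 84870. T2 cells had 2.72-fold more than T1 cells, or -1.44 on the log2 scale with a standard error of 0.09 (limma adjusted p = 3.29e-07).

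S100a10 (p11), the light chain that ties annexin A2 into a tetramer at the plasma membrane and which does not need calcium to do so, had 10328, 12407 and 9527 normalized counts in T1 and 28462, 22436 and 26341 in T2 libraries. T2 cells exceeded T1 cells 2.39-fold, a log2 difference of -1.26 with a standard error of 0.11 (limma adjusted p = 6.34e-06). S100a11, which pairs with annexin A1, had 6593, 7156 and 6349 in T1 and 10915, 9097 and 9147 in T2 libraries. Its populations did not overlap, but the difference was the smallest of the 8, at 1.45-fold, or -0.53 on the log2 scale with a standard error of 0.09 (limma adjusted p = 0.000438).

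S100a1, best known as a regulator of calcium handling in heart muscle, was present at a far lower level, with 226, 251 and 259 normalized counts in T1 and 649, 497 and 637 in T2 libraries. S100a13, which takes part in the release of Fgf1 and Il1a from cells without a signal peptide, had 160, 144 and 158 in T1 and 554, 473 and 612 in T2 libraries. These back-to-back genes were both lower in T1 cells, S100a1 by -1.26 and S100a13 by -1.81 on the log2 scale, each with a standard error of 0.14. The limma adjusted p-values were 2.01e-05 and 1.60e-06.

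S100a14 and S100a16, known mainly from epithelial tissues, went the other way. S100a16 had 389, 434 and 538 normalized counts in T1 and 127, 106 and 243 in T2 libraries. Here T2 replicate 3 stood above the other T2 libraries but still below every T1 library. The log2 fold change was 1.59 with a standard error of 0.27 (limma adjusted p = 0.000477), and 1.94 without T2 replicate 3. S100a14 was rare, with 38, 27 and 30 reads in T1 and 7, 6 and 13 in T2 libraries. Its log2 fold change was 1.82 with a standard error of 0.36 (limma adjusted p = 0.00125). Its T2 mean of 8.35 normalized counts lies under the minimum of 10, so it entered the comparison through its T1 level. Without T2 replicate 3 its log2 fold change was 2.09, which passes both filters. Of the 5 epithelial markers, 3 were higher in T1 cells past both filters, against 4.17% of all genes compared, and 1 of the 3, Krt14, had a T2 mean of 3.04 and was compared through its T1 level. The 5 summed to between 64001 and 69949 normalized counts in T1 and between 37480 and 43407 in T2 libraries, and their part in these differences was not tested.

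**Figure D2:**
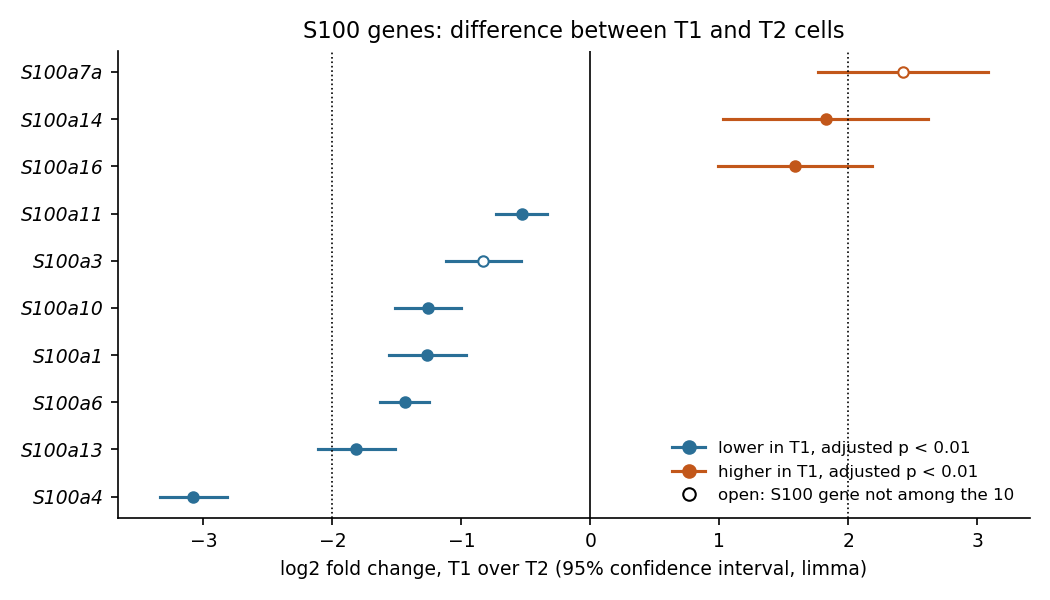
Log2 fold change of T1 over T2 with its 95% confidence interval from limma for the 8 compared genes and, as open points, S100a3 and S100a7a. Dotted lines mark the filter of 2 in either direction: S100a4 at -3.08 and S100a7a at 2.43 lie beyond it.

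S100a8 and S100a9 encode the subunits of calprotectin, the heterodimer that myeloid cells release in inflammation. S100a9 had 0 reads in every library, and S100a8 had 0 in each T1 library and 1, 3 and 3 in the T2 libraries. A count of 0 allows up to 3 reads, which is 2.78 to 3.17 normalized counts depending on the library. Neither gene reached the minimum mean of 10 normalized counts, so neither was given a fold in the main comparison. Of a list of 16 myeloid markers, Csf3r, Tyrobp, Mpo, Ngp, Retnlg and Adgre1 had 0 reads in all 6 libraries, and Ptprc, the leukocyte common antigen, had at most 6 reads in a library. The list summed to between 390 and 469 normalized counts in T1 and between 167 and 209 in T2 libraries. Most of that was Cd14, with 340 ± 30.2 in T1 and 83.1 ± 16.9 in T2 cells, and Cd68, with 72.9 ± 14.8 and 94.6 ± 20.7 (SD, n = 3 each).

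Together the 10 genes took 0.291% ± 0.0148 of all gene reads in T1 against 0.954% ± 0.0898 in T2 libraries (SD, n = 3 each). The T1 libraries ran from 0.280% to 0.308% and the T2 libraries from 0.852% to 1.02%, without overlap. To compare the genes with each other, normalized counts were divided by the length of each gene's principal transcript, from 486 to 1127 bases. On that scale S100a6 led in T1 cells with 41577 ± 1561 normalized counts per kb, followed by S100a10, S100a4 and S100a11 with means of 15699, 14964 and 13110. S100a10 overlapped S100a4 across the T1 libraries, and S100a4 overlapped S100a11. In T2 cells S100a4 with 125546 ± 11267 and S100a6 with 112968 ± 9791 per kb came first (SD, n = 3 each), with overlapping ranges. S100a10 and S100a11 followed at 37586 ± 4462 and 19021 ± 2026, apart from their neighbours in the order. S100a1 and S100a16 overlapped in T1 cells, as did S100a1 and S100a13 in T2 cells, and S100a14 was under 38.0 per kb everywhere.

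The make-up of S100 transcripts therefore differed. S100a4 formed 17.3% of the summed level per kb in T1 cells (14.9% to 19.2% over the libraries) and 42.3% in T2 cells (41.9% to 42.7%). The share of S100a6 was 48.2% and 38.1%, that of S100a10 18.1% and 12.6%, and that of S100a11 15.2% and 6.41%. Among the 11132 compared genes with a known length, S100a4 ranked 46 by level per kb in T1 cells and 3 in T2 cells, S100a6 ranked 11 and 4, S100a10 42 and 11, and S100a11 55 and 39.

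**Figure D3:**
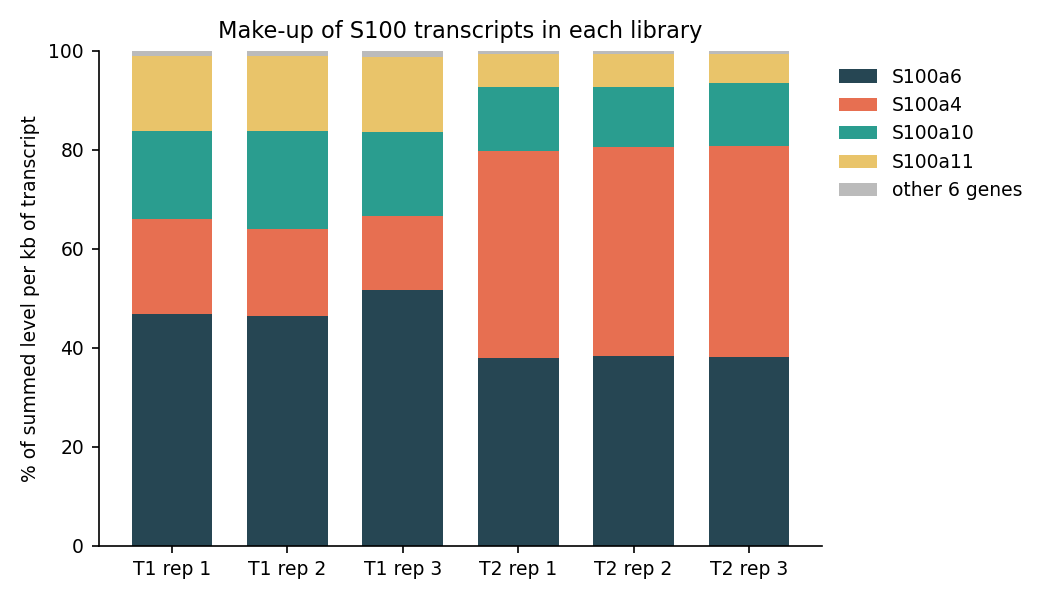
Percent of the summed level per kb of transcript held by each S100 gene in the 3 T1 and 3 T2 libraries (stacked bars from 0 to 100). S100a4 takes 14.9% to 19.2% in the T1 libraries and 41.9% to 42.7% in the T2 libraries, and the shares of S100a6, S100a10 and S100a11 are lower in each T2 library.

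Of the S100 genes of the table outside the 10, S100a3 and S100a7a had enough reads. S100a7a, the mouse relative of psoriasin, lies between S100a6 and S100a8 and had 89.9, 129 and 74.2 normalized counts in T1 and 14.7, 23.5 and 13.9 in T2 libraries. It was higher in T1 cells by 2.43 on the log2 scale, with a standard error of 0.30 (limma adjusted p = 5.11e-05), past both filters. S100a3, a protein of the hair cuticle whose annotated span overlaps S100a2 and Gm42674, was lower in T1 cells, with -0.83 on the log2 scale and a standard error of 0.13 (limma adjusted p = 0.000281). S100a2, S100a5 and S100b had at most 6.14 normalized counts in any library, and S100g and S100z had 0 reads.

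Along the cluster, genes of opposite direction lay next to each other. S100a14 and S100a16, higher in T1 cells, start 12.5 and 22.9 kb from S100a1, with S100a13 before them and S100a3 after them, both lower in T1 cells. Within 50 kb of the 10 genes, 4 genes that are not S100 genes were compared. Snapin, part of the machinery for vesicle docking, was lower in T1 cells with a log2 fold change of -1.25, and so was Chtop, a chromatin protein, with -0.38 (limma adjusted p = 2.08e-05 and 0.00101). Ilf2 at -0.15 and Npr1 at 0.40 did not pass (limma adjusted p = 0.141 and 0.331).

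**Figure D4:**
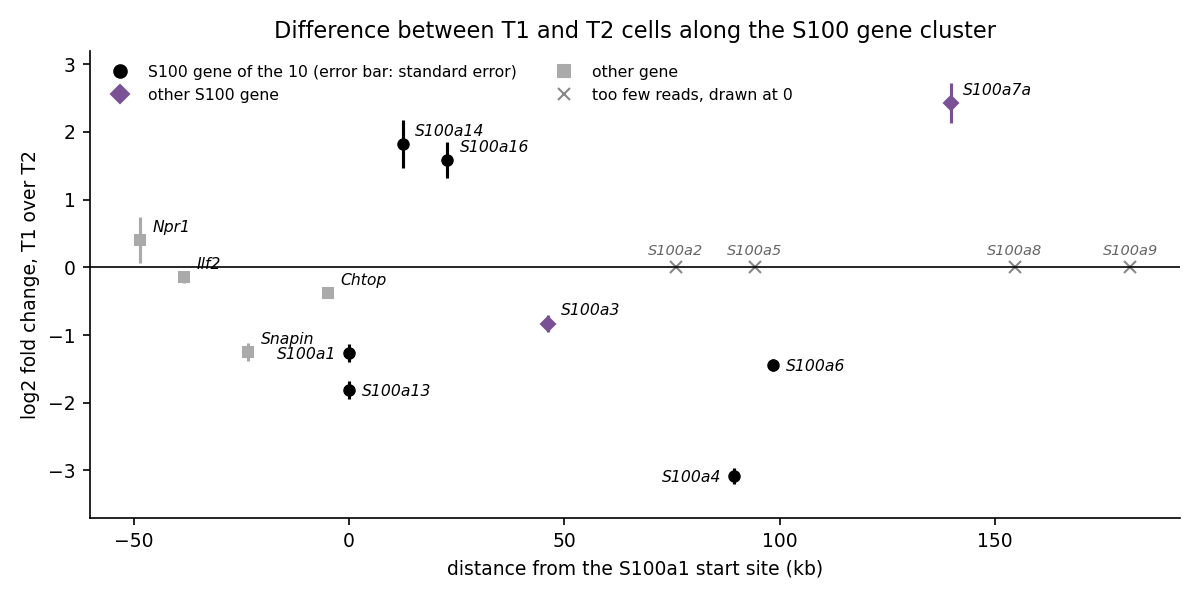
Log2 fold change of T1 over T2 (error bars: standard error) against the distance of each gene's start from that of S100a1 in kb, for S100 genes and other compared genes of the larger group. Crosses at 0 mark genes with too few reads. S100a14 and S100a16 lie above 0 between S100a13 and S100a3 below it, and S100a7a at 2.43 and Npr1 at 0.40 also lie above 0.

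A list of 22 binding partners and receptors of S100 proteins was drawn up from general knowledge, but with earlier results of these data known. Of the 22, 19 had enough reads. Of these, 7 passed as lower and 6 as higher in T1 cells at the threshold of 0.01, and their median log2 fold change was -0.07. That is 13 of 19, against 49.5% of all genes compared, and the 13 include Il1a, which was compared through its T1 level. Of the intracellular partners, the annexins were split. Anxa2, partner of S100a10, was lower in T1 cells with 18937 ± 736 against 34354 ± 2016 normalized counts (SD, n = 3 each), or -0.86 on the log2 scale (limma adjusted p = 4.77e-06). Anxa11, a partner of S100a6, had -0.63 (adjusted p = 4.00e-05, limma). Anxa1, partner of S100a11, was higher in T1 cells with 26648 ± 3025 against 15469 ± 1731 (SD, n = 3 each), or 0.78 on the log2 scale (limma adjusted p = 0.000103). Anxa6 had 0.13 and did not pass. Among the partners that are not annexins, Nucb1 was lower in T1 cells at -1.10 and Ppp5c higher at 0.69 (limma adjusted p = 4.72e-06 and 2.00e-05). Sgta at 0.18, Trp53 at -0.19 and Mdm2 at -0.07 did not pass (limma adjusted p = 0.0627, 0.226 and 0.531).

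The log2 ratio of S100a10 to Anxa2 was -0.82 ± 0.19 in T1 and -0.42 ± 0.12 in T2 libraries, and that of S100a11 to Anxa1 was -1.99 ± 0.22 and -0.67 ± 0.19 (SD, n = 3 each). T1 libraries were below all T2 libraries in both ratios, with mean differences of -0.40 and -1.32 (exact permutation test, two-sided, p = 0.1 for each and 0.1 after Benjamini-Hochberg adjustment over both, the smallest that 3 against 3 allow). Of all single genes compared, 68.1% did not overlap. For S100a11 to Anxa1 the separation was fixed beforehand, since every T1 value was below every T2 value in S100a11 and above in Anxa1. The test of that ratio therefore adds nothing to the single-gene differences. By their own log2 fold changes, S100a11 (-0.53) and Anxa1 (0.78) moved in opposite directions, while S100a10 (-1.26) and Anxa2 (-0.86) moved in the same direction.

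Cacybp, the calcyclin-binding protein, was higher in T1 cells with a log2 fold change of 0.66 (adjusted p = 0.000122, limma), opposite to S100a6. Il1a, a cytokine whose release involves S100a13, had 70.9, 84.6 and 98.6 normalized counts in T1 and 4.90, 5.12 and 7.42 in T2 libraries, or 3.66 on the log2 scale with a standard error of 0.29 (limma adjusted p = 2.46e-06). Its T2 mean of 5.81 normalized counts lies under the minimum of 10, so Il1a too was compared through its T1 level, and its log2 fold change was 3.05 with a pseudocount of 5. Fgf1, the other cargo, had at most 10.2 normalized counts in any library and was not compared. Myh9, the myosin heavy chain bound by S100a4, had 0.45 (adjusted p = 0.00482, limma) and Ahnak, the scaffold bound by S100a10 and annexin A2, had -0.40 (adjusted p = 0.00925, limma). Both calls were lost when single libraries were left out, for Myh9 without T1 replicates 1 or 3 or T2 replicates 1 or 3 (limma adjusted p = 0.0140 to 0.0254) and for Ahnak without T1 replicates 1 or 2 or any T2 replicate (0.0188 to 0.0387). Without a variance trend both were lost as well (limma adjusted p = 0.0245 for Myh9 and 0.0372 for Ahnak). Ahnak also missed the threshold with the replicate block (limma adjusted p = 0.0109), without the filter on low counts (limma adjusted p = 0.0130) and by edgeR (adjusted p = 0.0102).

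Of 7 receptors described for released S100 proteins, 6 were compared, of which 3 were lower and 1 higher in T1 cells and 2 did not pass, against 49.5% of all genes called. The receptors were not matched to single S100 genes, and S100a8 and S100a9 had at most 3 reads in any library. Alcam, an adhesion molecule of the immunoglobulin family, had 245, 364 and 224 normalized counts in T1 and 2015, 2284 and 2068 in T2 libraries, or -2.96 on the log2 scale with a standard error of 0.16 (limma adjusted p = 1.91e-07). Mcam, a related adhesion molecule, had 1121, 1405 and 735 in T1 and 229, 305 and 209 in T2 libraries, or 2.10 on the log2 scale with a standard error of 0.22 (limma adjusted p = 1.86e-05). It stayed past an adjusted p-value of 0.01 without any 1 library, but fell under the fold filter without T1 replicate 2 (1.89) or T2 replicate 3 (1.99). Nptn had -0.75 and Tlr4 -0.78 (limma adjusted p = 1.37e-05 and 0.00211), and Tlr4 missed the threshold without T2 replicate 1 (limma adjusted p = 0.0115). Bsg, abundant in both populations, had 0.10, and Ager, which encodes the receptor RAGE, had at most 14.8 normalized counts in a library and a log2 fold change of -0.36 (0.045 without T1 replicate 2), neither past the test. Cd36 had 0 reads in every library.

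**Figure D5:**
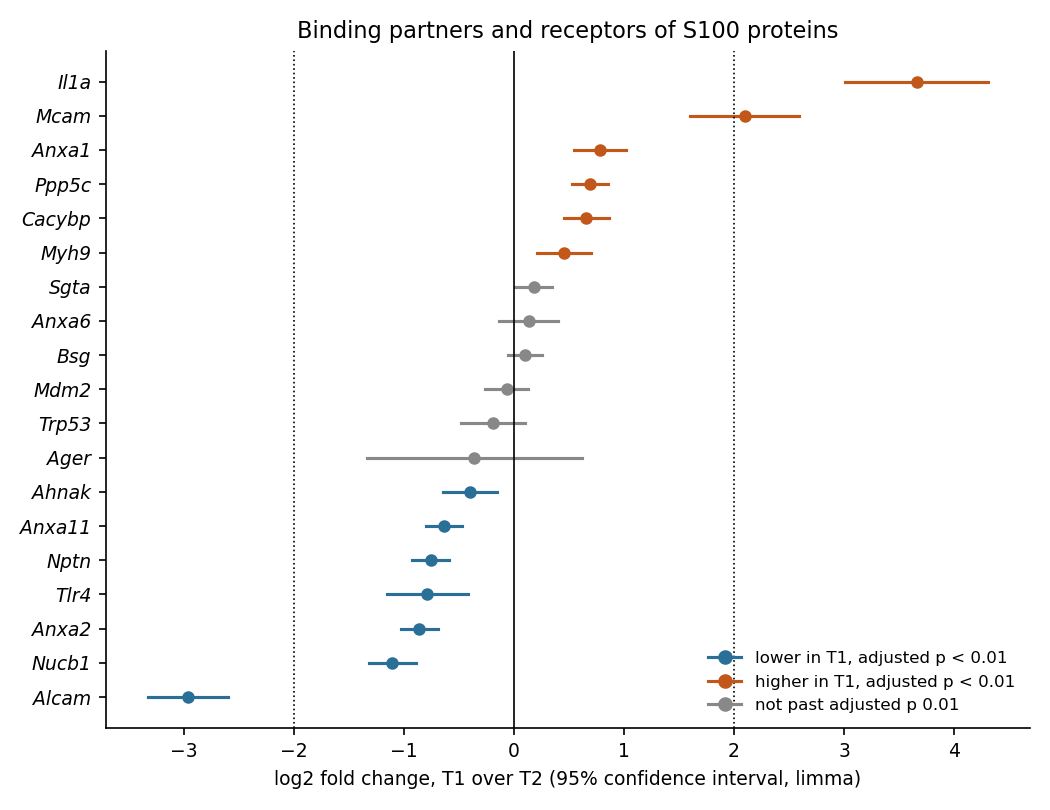
Log2 fold change of T1 over T2 with its 95% confidence interval from limma for the 19 compared binding partners and receptors. Alcam lies at -2.96 and Il1a at 3.66, the latter with a T2 mean under the minimum of 10 and a value of 3.05 with a pseudocount of 5, and the 6 grey genes did not pass an adjusted p-value of 0.01.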

How the data were processed

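Reads were trimmed by the authors (Trimmomatic) and placed on mm10 (TopHat2). Gene counts came from HTSeq and were scaled with DESeq2 size factors (median of ratios). The signal deposited is therefore each gene's reads over its library's size factor. The annotation, strand setting and versions are not given in the sources used here, so reads of overlapping genes could not be assigned further. Up to a tolerance of 0.02 reads, 100% of values were whole multiples of what 1 read is worth (0.928 to 1.06 normalized counts), and whole reads were recovered. No column was left out (0 unused).

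T1 and T2 samples were compared with a variance trend on log2(normalized count + 1) values in limma 3.58.1 (R 4.3.3), over 11514 genes with a mean of at least 10, with Benjamini-Hochberg adjustment over all of them. Thresholds followed the study's methods: 0.01 for the adjusted p-value and 2 for the log2 fold change in absolute size. A pseudocount of 1 understates the change of rare genes. As alternatives, whole reads were tested with edgeR 4.0.16 (quasi-likelihood) and with DESeq2 1.42.0. The fits were tested on simulated data.

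Positions, transcript lengths and overlaps came from GENCODE M21 of the same build, and promoters from RefSeq (GRCm38.p6). The principal transcript is the one with the best APPRIS and support level, then the longest. By rule, all 10 members, other S100 genes, partners and receptors past both filters or in a ratio, defining markers, and the 3 genes most like a member past both filters were named. The other partners and receptors, the 4 neighbouring genes and further markers were named after their values were seen. The ratio of S100a8 to S100a9 was planned but not made, as S100a9 had no read. Of the other marker lists, 5 endothelial genes summed to at most 5.29 normalized counts in a library, and 5 Schwann cell and melanocyte genes (S100b among them) to between 115 and 148 in T1 and 290 and 364 in T2 libraries, mostly Mitf. Members and lists were chosen with earlier results of these data known. Figures were drawn with matplotlib 3.10.9.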

Additional observations from a re-analysis of the deposited data

How the results depend on the processing

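All 127 alternative values of the 8 compared S100 genes kept their direction and their side of an adjusted p-value of 0.01, under other pseudocounts, filters, scalings, edgeR, DESeq2, the replicate block and each library left out. Of 334 values for partners, receptors and other S100 genes, 318 did, 15 lost the threshold (Ahnak, Myh9 and Tlr4) and 1 reversed: Ager ranged from -0.70 to 0.045 with each library left out, the latter without T1 replicate 2. With a mean of at least 50, 1 member was higher in T1 cells, since S100a14 was not compared. Of the partner and receptor list, 1 gene was then higher past both filters, the receptor Mcam, since Il1a was not compared. Without the filter on low counts S100a8 was also called lower in T1 cells (log2 fold change -1.64, adjusted p = 0.00856, limma), on 7 T2 reads in all. An adjusted p-value under 0.05 with a log2 fold change above 1 gave 5 members lower and 2 higher. Of the partner and receptor list it gave 2 genes lower and 2 higher, and of all genes 1310 lower and 1135 higher. With each library left out, 0 to 1 members and 1 to 2 genes of the partner and receptor list were higher past both filters. The difference in the share of gene reads was 0.663 percentage points, and 0.387 without S100a6. With the union of all exons as the length, an alternative chosen after seeing the data, the log2 ratio of S100a10 to S100a4 per kb in T1 cells was -0.52 in place of 0.07, that of S100a4 to S100a6 in T2 cells 0.83 in place of 0.15, and the S100a4 share 22.0% in T1 and 51.1% in T2 cells.

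T1 and T2 samples share replicate numbers. Deviations from the population means correlated by 0.06, 0.17 and 0.10 over the compared genes for numbers 1, 2 and 3, not all above 0.1, so the numbers were not taken as pairs. T2 replicate 1 correlated better with T1 replicate 3 (0.07) than with its own number. With the replicate block, 6 members were lower and 2 higher at an adjusted p-value under 0.01, and 2854 genes were lower and 2926 higher in all, and of the partners and receptors Ahnak lost its call. Both annexin ratios kept their differences of -0.40 and -1.32 (exact sign-flip test, p = 0.25, the smallest that 3 pairs allow). For S100a11 to Anxa1 this outcome too was fixed by the single-gene values. Genes with few reads, S100a8, S100a9 and S100a14 above all, are limited by depth.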

Other observations

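Apart from the S100 genes, the pattern of S100a4 over the 6 libraries was nearest to that of 4930581F22Rik, Ghr and Cx3cl1, by the Euclidean distance of mean-centred log2(normalized count + 1) values (0.19, 0.25 and 0.26). Ghr, the growth hormone receptor, had means of 378 normalized counts in T1 and 3441 in T2 cells. Cx3cl1, the chemokine fractalkine, had 379 and 2981, and 4930581F22Rik had 35.0 and 295. With 2 populations, this distance is small for any gene whose difference between them is of a like size.

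In all 8 compared S100 genes, T2 replicate 2 had the lowest T2 value, in S100a14 and S100a16 as well as in the 6 genes that were higher in T2 cells. Some of these orders were near ties. S100a14 had 6 reads there against 7 in T2 replicate 1, and S100a11 had 9097 normalized counts against 9147 in T2 replicate 3. Over all 11514 genes compared, T2 replicate 2 held the lowest T2 value in 36.6%, against 28.9% for T2 replicate 1 and 34.5% for T2 replicate 3. Without that library the difference in the share of gene reads taken by the 10 genes was 0.714 percentage points.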
